A study of Homo sapiens with 2 samples.

Results

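The genes described here encode the DNA polymerases and the proteins that work beside them at the replication fork: 46 genes of the 19775 genes that had a probe set assigned to a single gene symbol. They were listed by name for their function, with earlier results of these data known. Every probe set annotated to exactly 1 of these symbols was taken, 91 in all. They comprised 12 subunits of the replicative polymerases, 12 genes of translesion, repair and mitochondrial polymerases, and 22 genes of the sliding clamp, its loaders, Okazaki fragment processing, single-strand binding and fork protection. Expression was measured in CL1-5, an established and highly invasive human lung adenocarcinoma cell line, on Affymetrix U133 Plus 2.0 arrays. One array held RNA of a culture kept for 24 h with 0.11 µM analogue 3, a desmosdumotin C analogue whose substituents the labels give as iodo, tripropyl and methoxy, and the other RNA of a culture kept for 24 h with the solvent DMSO, listed at 0.05 µg/mL. The design asked which transcripts differ between treated and control cells. Each group had 1 array, so nothing below could be set against replicates and no p-values are printed.

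At a fork, DNA polymerase alpha-primase lays short primers, polymerase epsilon extends the leading strand and polymerase delta the lagging strand. The ring-shaped clamp PCNA holds the polymerases on DNA, replication factor C (RFC) loads it, RPA coats the exposed single strands, and FEN1 and LIG1 trim and seal Okazaki fragments. Translesion polymerases copy past damaged bases, repair polymerases fill gaps or join broken ends, and polymerase gamma copies the mitochondrial genome. Genes of the replicative machinery are known as targets of E2F factors, which drive entry into S phase.

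Intensities are on a linear scale and are multiples of the array median, which was 1 on both arrays. Values under 32 were raised to 32 before a difference was taken. A gene with at least 1 array at or above this floor was counted as measured. Since 13.1% of all probe sets reached 32 with analogue 3 and 13.4% with DMSO, each count is also given with a floor of 8, which 26.0% and 26.8% reached. A fold taken against the floor, because the other array was under it, is a lower bound and is written "at least".

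KRT18, an epithelial keratin, was 457.9 with analogue 3 and 460.8 with DMSO, and the mesenchymal filament gene VIM was 1868 and 1883. The other 2 mesenchymal markers, CDH2 and FN1, were under 8 on both arrays. KRT8 was 77.8 and 42.3. The other 8 lung epithelial markers, among them EPCAM, CDH1 and NKX2-1, were under 8 on both arrays, so most defining markers of lung adenocarcinoma epithelium were not measured in these cells. Summed levels of 4 leukocyte markers were 2.53 with analogue 3 and 3.05 with DMSO, of 4 fibroblast markers 7.10 and 5.47, and of 4 endothelial markers 19.0 and 14.4, of which PECAM1 gave 15.7 and 11.3. HBB, the erythroid marker on the array, was 0.58 and 0.59. For the control gene GAPDH the 3′ probe set was 1.18 times the 5′ one on the analogue 3 array and 1.21 times on the DMSO array. For ACTB these ratios were 10.0 and 11.8, so its signal lay far to the 3′ side on both arrays. The part of these values in the differences below was not tested. RNA came from whole cultures, so a larger share of cells that carry a transcript and a higher level per cell cannot be told apart.

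Promoter sequences of 39 of the 46 genes were matched by symbol in RefSeq (GRCh38.p14), in windows from 250 bases before to 50 bases after an annotated start. ATAD5, DNA2, DSCC1, POLB, POLD3, RPA2 and RPA3 had no entry. The 150 bases just before the start are shown for 5 genes higher with analogue 3 whose window held an E2F-type match, and for POLD4, which was lower, and POLG, with a smaller difference. These are chosen examples. FEN1 and RFC2 were past 2-fold without a match, and REV3L held a match and was lower with analogue 3. Capitals mark the E2F-type match, and each sequence runs 5′ to 3′ on the gene's strand. A gene with several starts is shown by the window that holds the match, otherwise by its first in the table.
PCNA (chr20:5126623-5126772, minus strand): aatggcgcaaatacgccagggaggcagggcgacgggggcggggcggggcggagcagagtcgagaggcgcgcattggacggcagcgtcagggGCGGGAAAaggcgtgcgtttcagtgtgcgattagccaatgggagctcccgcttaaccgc
PCLAF (chr15:64381442-64381591, minus strand): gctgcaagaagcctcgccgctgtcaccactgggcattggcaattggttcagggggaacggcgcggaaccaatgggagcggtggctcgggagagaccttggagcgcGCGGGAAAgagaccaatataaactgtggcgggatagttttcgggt
POLA2 (chr11:65261812-65261961, plus strand): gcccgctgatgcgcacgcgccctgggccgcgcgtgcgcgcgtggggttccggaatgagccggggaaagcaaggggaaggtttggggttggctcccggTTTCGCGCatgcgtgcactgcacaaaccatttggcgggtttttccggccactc
RFC3 (chr13:33817999-33818148, plus strand): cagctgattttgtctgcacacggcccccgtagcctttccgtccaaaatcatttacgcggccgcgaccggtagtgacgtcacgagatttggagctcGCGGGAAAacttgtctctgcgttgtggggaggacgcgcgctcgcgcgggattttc
LIG1 (chr19:48170345-48170494, minus strand): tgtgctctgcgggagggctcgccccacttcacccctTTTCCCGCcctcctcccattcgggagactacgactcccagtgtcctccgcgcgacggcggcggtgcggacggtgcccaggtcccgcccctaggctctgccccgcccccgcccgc
POLD4 (chr11:67353597-67353746, minus strand): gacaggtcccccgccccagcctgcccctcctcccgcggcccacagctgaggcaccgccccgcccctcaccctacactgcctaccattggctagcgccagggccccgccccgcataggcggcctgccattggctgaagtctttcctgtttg
POLG (chr15:89334825-89334974, minus strand): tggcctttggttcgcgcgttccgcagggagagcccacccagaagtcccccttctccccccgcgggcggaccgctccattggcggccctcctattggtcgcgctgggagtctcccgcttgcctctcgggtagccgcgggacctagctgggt

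The matches are the letters TTTCCCGC, TTTCGCGC, TTTGCCGC or TTTGGCGC, searched on both strands over the whole window. Of the 39 genes, 13 (33.3%) held a match, compared with 3.99% of the 27305 genes in the table. By window the shares were 26.0% of 50 and 3.31% of 35116. Matches were found in POLA1, POLA2, POLE, POLE2 and POLE4 among the replicative subunits, in POLI and REV3L among the specialised polymerases, and in PCNA, PCLAF, RFC3, LIG1, CLSPN and TIPIN among the fork genes. By class, 5 of 11 replicative, 6 of 17 fork and 2 of 11 specialised genes held one. Of the 19 genes at least 2-fold higher with the floor of 8, 7 (36.8%) held a match, and of the other 20 genes 6 (30.0%) did. Only TIPIN had more than 1 match in a window, and its pair overlapped each other. The CCAAT box (CCAAT, both strands) was in 20 of 39 genes (51.3%), near the 39.7% of all genes, and overlapped no E2F-type match. A match describes letters only and is no evidence of binding.

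**Figure D1:**
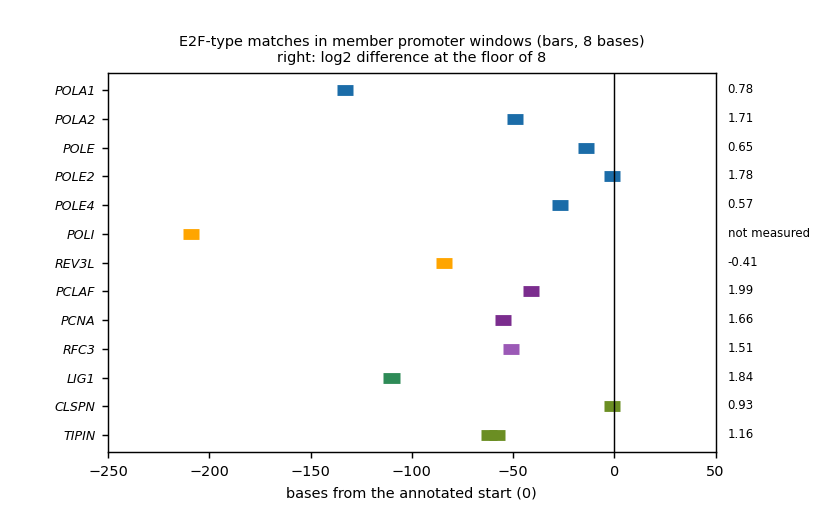
Positions of E2F-type matches in the promoter windows of the 13 genes that held one, in bases from the annotated start (x axis), with 1 row per gene. Bars span the 8 matched bases and are coloured by role, and the numbers at the right are log2 differences with the floor of 8. All matches lie before the start except those of POLE2 and CLSPN, which cross it.

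Most genes of the replicative polymerases and of the fork had higher values with analogue 3. With the floor of 8, 11 of 12 replicative, 20 of 21 fork and 6 of 9 specialised polymerase genes lay above 0. Of all 8523 genes measured there, 3789 did. At least 2-fold higher with that floor were 6 replicative, 14 fork and 2 specialised genes. With the floor of 32, 7 of 8 replicative subunits and 2 of 4 specialised polymerase genes lay above 0. So did 14 of 15 clamp, loader, Okazaki, RPA and fork genes, and 2446 of all 5050 measured genes. At least 2-fold higher were 1 replicative, 0 specialised and 10 fork genes. A gene that reached a floor only with analogue 3 lies above 0 by construction. On both arrays 32 was reached by 3 of the 8 replicative, 3 of the 4 specialised and 11 of the 15 fork genes. With the floor of 32, 27 members were measured, 17 of them on both arrays. Of these 27, 11 were at least 2-fold higher, where 3.47% of all 5050 measured genes were, and 0 were at least 2-fold lower, where 2.67% of all measured genes were. The median log2 difference was 0.74 over the 27 members and -0.01 over all measured genes. With the floor of 8, 42 members were measured, 22 of them at least 2-fold higher and 1, POLD4, at least 2-fold lower. The shares of all 8523 genes measured there were 3.74% and 3.92%. The median was then 1.09, and -0.05 over all measured genes. Before any floor, 38 of the 46 members had the higher value with analogue 3 and 8 with DMSO. These include 4 members under 8 on both arrays. The median log2 difference of all 19775 genes was then -0.01, and their share by sign was not counted.

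The error visible in 2 single arrays is how far the probe sets of a gene disagree. Over 1127 genes with at least 2 probe sets at or above 32 on both arrays, the SD of the log2 difference of 1 probe set was 0.17, and it was 0.23 over 2874 genes with the floor of 8. This leaves out the spread between cultures, RNA samples and hybridisations. A 2-fold difference is 1 on this scale.

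**Figure D2:**
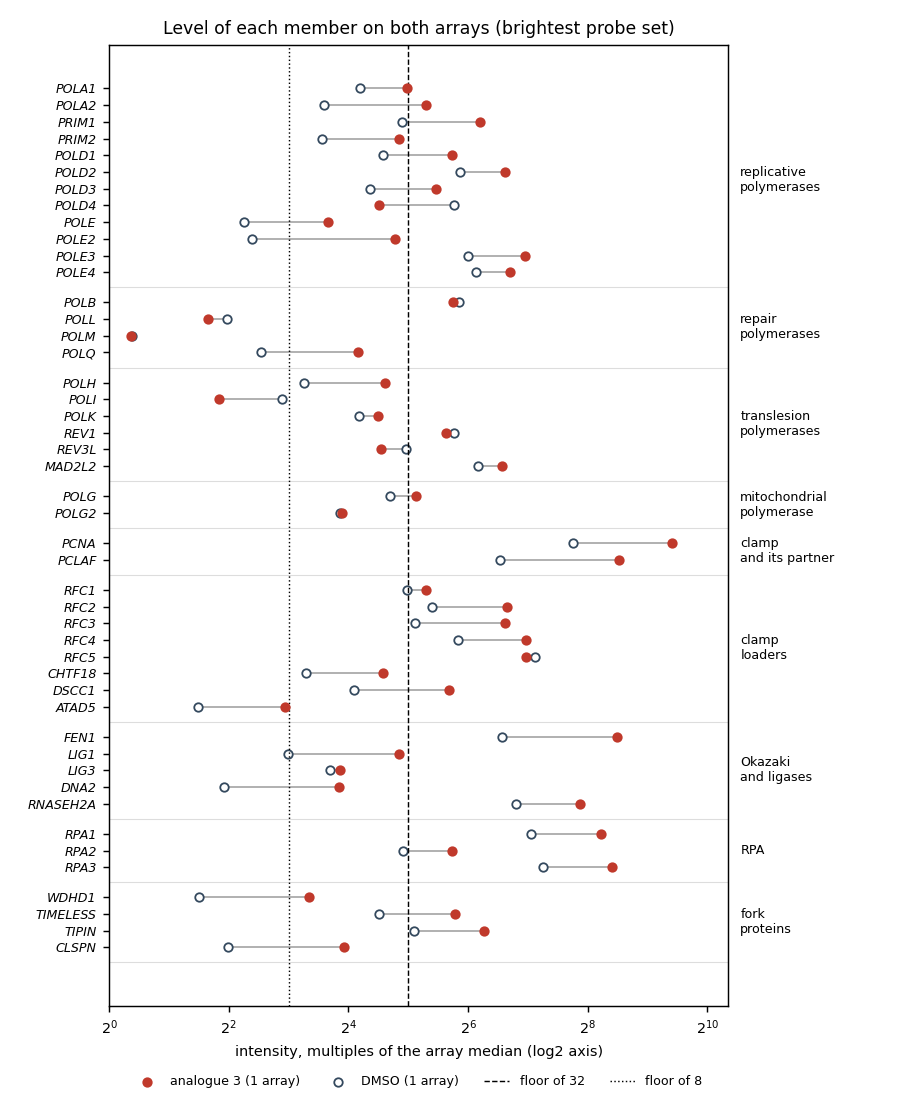
Intensity of each member's brightest probe set on the analogue 3 array (filled) and the DMSO array (open), on a log2 axis in multiples of the array median, grouped by role. The dashed and dotted lines are the floors of 32 and 8. In the clamp, RPA and fork protein groups every filled point lies to the right of the open point, and among replicative subunits POLD4 is the exception.

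The clamp and its partner had the highest median difference of the roles with either floor, 1.82 on the log2 scale. PCNA gave 683.1 with analogue 3 and 216.3 with DMSO, in its single probe set. It was 3.16-fold higher, a log2 difference of 1.66, which ranked 27 from the top among 5050 measured genes. PCLAF, which encodes a small PCNA-binding protein, gave 369.5 and 93.0. It was 3.97-fold higher, at rank 8, and its second probe set gave 27.1 and 7.31. Both genes were thus far above the DMSO level in each probe set they have on the array.

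RFC is a ring of 5 subunits, of which RFC1 is the large subunit that binds PCNA and RFC2 to RFC5 are shared with alternative loaders. RFC3 gave 98.0 with analogue 3 and 34.4 with DMSO, and was 2.85-fold higher. RFC2 gave 100.2 and 42.0, and was 2.39-fold higher. RFC4 gave 125.3 and 57.2, and was 2.19-fold higher. These 3 small subunits were past 2-fold on arrays that both lay above 32. RFC1 gave 39.1 and 31.5 in its brightest probe set and 21.7 and 20.1 in the next, log2 differences of 0.31 and 0.11 with the floor of 8. The large subunit therefore differed by less than RFC2, RFC3 and RFC4.

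The probe sets of RFC5 disagreed. The brightest gave 124.6 with analogue 3 and 139.0 with DMSO, a log2 difference of -0.16. The second gave 58.5 and 17.6, a log2 difference of 1.74 with the floor of 8. The third gave 14.5 and 3.69, a difference of at least 0.86. Of its 3 probe sets, 2 were thus higher with analogue 3 and the one that represents the gene here was not. With the median of the gene's probe sets the difference was 0.87, so the sign for RFC5 depends on the probe set.

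Of the alternative loader subunits, CHTF18 and ATAD5 act with RFC2 to RFC5 in place of RFC1. DSCC1, which joins the CHTF18 loader, gave 51.2 with analogue 3 and 17.1 with DMSO, at least 1.60-fold higher against the floor of 32 and 3.00-fold with the floor of 8. CHTF18 gave 23.8 and 9.82, a 2.43-fold difference with the floor of 8. ATAD5, whose product unloads PCNA, lay under both floors at 7.65 and 2.80. All 3 had the higher value with analogue 3.

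Genes of Okazaki fragment processing were also higher. FEN1, the flap endonuclease, gave 361.1 with analogue 3 and 95.0 with DMSO, and was 3.80-fold higher, at rank 11 of 5050. Its second probe set gave 84.0 and 19.2, a log2 difference of 2.13 with the floor of 8. RNASEH2A, the catalytic subunit of ribonuclease H2, which removes ribonucleotides from DNA, gave 234.4 and 111.2, and was 2.11-fold higher. LIG1, the ligase that seals Okazaki fragments, gave 28.6 and 7.91, at least 3.58-fold higher against the floor of 8. DNA2, a nuclease and helicase of long flaps, gave 14.4 and 3.76, at least 1.80-fold higher. All 4 replication enzymes of this role were higher with analogue 3.

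LIG3, a ligase of base excision repair and of mitochondria, was unlike LIG1. Its brightest probe set gave 14.5 with analogue 3 and 12.9 with DMSO, and the next gave 11.2 and 12.8. The log2 differences were 0.17 and -0.19 with the floor of 8, within the probe-set SD of 0.23. Of its 6 probe sets, 2 were higher with analogue 3, and all but the brightest and the next lay under 8 on both arrays.

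All 3 RPA subunits were higher with analogue 3. RPA1, the large subunit, gave 297.6 with analogue 3 and 133.1 with DMSO, and was 2.24-fold higher. RPA3 gave 339.6 and 152.6, and was 2.23-fold higher. RPA2 gave 53.0 and 30.1, at least 1.66-fold higher against the floor of 32 and 1.76-fold with the floor of 8. The log2 differences of RPA1 and RPA3 were 1.16 and 1.15, and the second RPA1 probe set gave 1.17.

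TIMELESS and TIPIN form a complex that, with CLSPN (claspin), keeps the helicase and the polymerases together and passes signals to the checkpoint kinases. TIPIN gave 76.5 with analogue 3 and 34.3 with DMSO, and was 2.23-fold higher. TIMELESS gave 54.9 and 22.8, at least 1.72-fold higher against the floor of 32 and 2.41-fold with the floor of 8. CLSPN gave 15.2 and 3.95, and all 4 of its probe sets were higher with analogue 3, one of them by little at 3.87 and 3.47. All but the brightest lay under 8 on both arrays. WDHD1, which links polymerase alpha to the helicase, gave 10.2 and 2.82 in its brightest probe set, and its other probe sets gave 10.9 and 2.54, and 3.86 and 1.05. CLSPN and WDHD1 had DMSO values under 8, so their folds are bounds of at least 1.90 and 1.27. All 4 fork proteins were higher with analogue 3.

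**Figure D3:**
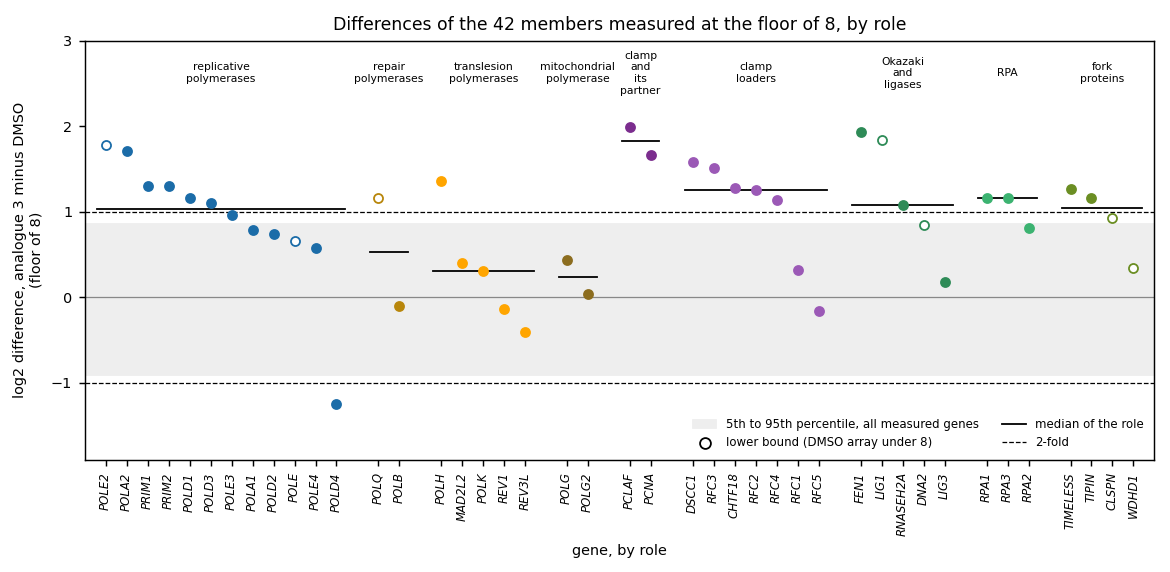
Log2 difference, analogue 3 minus DMSO with the floor of 8, of the 42 members measured there, grouped by role on the x axis. Open points are lower bounds, black lines are medians by role, dashed lines are 2-fold, and the grey band spans the 5th to 95th percentile of all measured genes (-0.92 to 0.86). PCLAF is the highest point and the clamp role has the highest median, the specialised polymerases lie mostly within the band, and POLD4 lies below it.

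Of the 12 replicative subunits, 8 were measured with the floor of 32, 3 of them on both arrays, and 7 of the 8 lay above 0. PRIM1 alone was at least 2-fold higher, and the median log2 difference was 0.65. With the floor of 8 all 12 were measured, 6 were at least 2-fold higher, 1 was at least 2-fold lower and the median was 1.03.

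Polymerase alpha-primase was higher in each of its 4 subunits. PRIM1, the catalytic primase subunit, gave 73.3 with analogue 3 and 29.7 with DMSO, at least 2.29-fold higher against the floor of 32. POLA2, the accessory subunit, gave 39.2 and 12.0, which is at least 1.22-fold against the floor of 32 and 3.27-fold with the floor of 8. PRIM2, the large primase subunit, gave 28.9 and 11.8, a 2.45-fold difference with the floor of 8. POLA1, the polymerase subunit, gave 31.3 and 18.2, a 1.72-fold difference there. The catalytic subunit POLA1 had the smallest difference of the 4. Another 4 probe sets are annotated to both PRIM2 and PRIM2BP, were not used, and lay under 8 on both arrays, the brightest at 5.97 and 1.59.

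The subunits of polymerase delta differed in direction. POLD1, the catalytic subunit, gave 53.3 with analogue 3 and 23.8 with DMSO, at least 1.67-fold higher against the floor of 32 and 2.24-fold with the floor of 8. POLD3 gave 44.1 and 20.6, at least 1.38-fold and 2.14-fold in the same order. POLD2, the subunit that joins POLD1 to POLD3, gave 97.6 and 58.4, a 1.67-fold difference. These 3 subunits were higher with analogue 3. POLD4, the smallest subunit, gave 22.8 with analogue 3 and 54.1 with DMSO. It was at least 1.69-fold lower against the floor of 32 and 2.38-fold lower with the floor of 8, a log2 difference of -1.25. It has 1 probe set, so no second measurement on the array bears on this value.

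Polymerase epsilon was higher in all 4 subunits. POLE3 and POLE4 are small histone-fold subunits, and POLE3 also serves in a chromatin remodelling complex. POLE3 gave 124.3 with analogue 3 and 64.0 with DMSO, and was 1.94-fold higher. POLE4 gave 104.3 and 70.1, and was 1.49-fold higher, with 99.6 and 70.0 in its second probe set. The catalytic subunit POLE gave 12.6 and 4.75, at least 1.57-fold higher against the floor of 8. POLE2, the accessory subunit, gave 27.5 and 5.23, at least 3.44-fold higher against that floor. The POLE2 bound was the largest difference among the 12 replicative subunits with the floor of 8.

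Of the 12 specialised polymerase genes, 4 were measured with the floor of 32 and none of these was past 2-fold. Of all genes measured there, 3.47% were at least 2-fold higher, so a count of 0 among 4 genes cannot show a lack of difference. The median log2 difference of the 4 genes was 0.01, compared with 0.65 for the replicative subunits and -0.01 for all measured genes. With the floor of 8, 9 specialised genes were measured. Of these, 2 (22.2%) were at least 2-fold higher, compared with 3.74% of all measured genes. The medians there were 0.31 for the specialised genes, 1.03 for the replicative subunits and -0.05 for all measured genes. The difference between the classes was not tested, because there was 1 array per group.

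The 2 specialised genes past 2-fold were POLH and POLQ. POLH, polymerase eta, which copies past ultraviolet-induced thymine dimers, gave 24.5 with analogue 3 and 9.57 with DMSO. It was 2.56-fold higher with the floor of 8, and 5 of its 6 probe sets were higher with analogue 3. The next brightest gave 15.4 and 7.58, a log2 difference of at least 0.94. All further POLH probe sets lay under 8 on both arrays, so their direction has little weight. The brightest is an x_at probe set, a type that can share sequence with other transcripts. POLQ, polymerase theta, which joins broken ends through short homologies, gave 17.9 and 5.78, at least 2.24-fold higher against the floor of 8. Its other probe set, under 8 on both arrays, gave 1.92 and 0.79. Both probe sets of POLQ were thus higher with analogue 3.

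The other translesion genes showed differences under 2-fold or lay under the floors. MAD2L2, a subunit of polymerase zeta, gave 94.8 with analogue 3 and 71.8 with DMSO, a log2 difference of 0.40. REV3L, the catalytic subunit of polymerase zeta, gave 23.4 and 31.1, a difference of -0.41 with the floor of 8. MAD2L2 and REV3L thus differed in opposite directions. REV1, a scaffold for translesion polymerases, gave 49.8 and 54.6, a difference of -0.13. POLK, polymerase kappa, gave 22.5 and 18.2, a difference of 0.31 with the floor of 8. POLI, polymerase iota, lay under 8 on both arrays at 3.55 and 7.43, and its second probe set gave 0.42 and 1.55. Both POLI probe sets were lower with analogue 3, at levels where no fold is given.

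POLB, the gap-filling polymerase of base excision repair, gave 53.8 with analogue 3 and 57.8 with DMSO, a log2 difference of -0.10. POLL and POLM, which fill ends during end joining, lay under 8 on both arrays, POLL at 3.13 and 3.93 and POLM at 1.29 and 1.30. POLG, the catalytic subunit of the mitochondrial polymerase, gave 34.9 and 25.8, a difference of at least 0.13 against the floor of 32 and 0.43 with the floor of 8. Its accessory subunit POLG2 gave 14.8 and 14.4, a difference of 0.03 with the floor of 8. None of the 3 measured genes among these reached 2-fold with either floor.

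**Figure D4:**
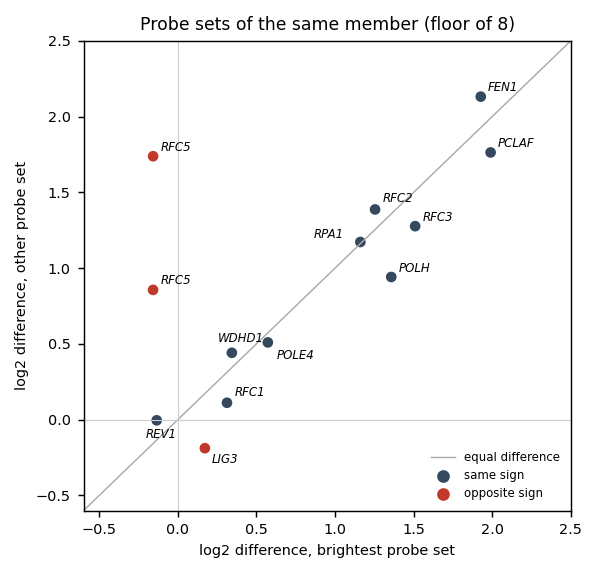
Log2 difference of the brightest probe set (x axis) against that of each other probe set measured with the floor of 8 (y axis), for the 12 members that have one, 13 points in all. The line marks equal differences. Of the points, 10 have the same sign in both, and the 3 with opposite signs belong to RFC5 and LIG3.

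Other genes of replication and repair were counted the same way, from lists grouped by function and chosen with earlier results of these data known. With the floor of 8, helicase and origin licensing genes were at least 2-fold higher in 19 of 25 measured genes, and deoxynucleotide supply genes in 6 of 8. The counts were 13 of 20 and 6 of 8 with the floor of 32. Of all measured genes, 3.74% were at least 2-fold higher with the floor of 8 and 3.47% with the floor of 32. MCM3, a helicase subunit, gave 224.4 with analogue 3 and 55.8 with DMSO, and TYMS, thymidylate synthase, gave 906.5 and 325.7. Chromatin assembly and topoisomerase genes were at least 2-fold higher in 2 of 9 with the floor of 8, CHAF1A and CHAF1B, both subunits of the replication-coupled histone chaperone CAF-1, and in 0 of 7 with the floor of 32. None of these 3 lists had a gene at least 2-fold lower, where 3.92% of all measured genes were with the floor of 8 and 2.67% with the floor of 32.

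The other 4 lists gave smaller shares with the floor of 8, which is given first. With that floor 3.74% of all measured genes were at least 2-fold higher and 3.92% at least 2-fold lower. In lists this short, a count of 0 lies near these shares. Of 8 measured translesion regulators, 0 were past 2-fold either way, among them USP1, which removes ubiquitin from PCNA, at 245.3 and 146.0. Of 8 measured genes of mitochondrial DNA maintenance, 0 were past 2-fold, with the mitochondrial single-strand binding gene SSBP1 at 561.8 and 449.5. Base excision and end joining genes had 2 of 15 (13.3%) at least 2-fold higher. These were UNG, the uracil glycosylase, at 87.0 and 33.2, and PARP2, a sensor of strand breaks, at 107.0 and 48.7. Fork checkpoint and 9-1-1 clamp genes had 1 of 8, CHEK1, the checkpoint kinase downstream of ATR, at 50.6 and 24.4. Counts at least 2-fold higher with the floor of 32 were 0 of 4 translesion regulators, 0 of 6 mitochondrial genes, 2 of 8 base excision and end joining genes and 0 of 5 fork checkpoint genes, so the CHEK1 difference was past 2-fold only with the floor of 8. No gene of these 4 lists was at least 2-fold lower. CHAF1A, CHAF1B, UNG, PARP2 and CHEK1 were named after their values were seen.

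**Figure D5:**
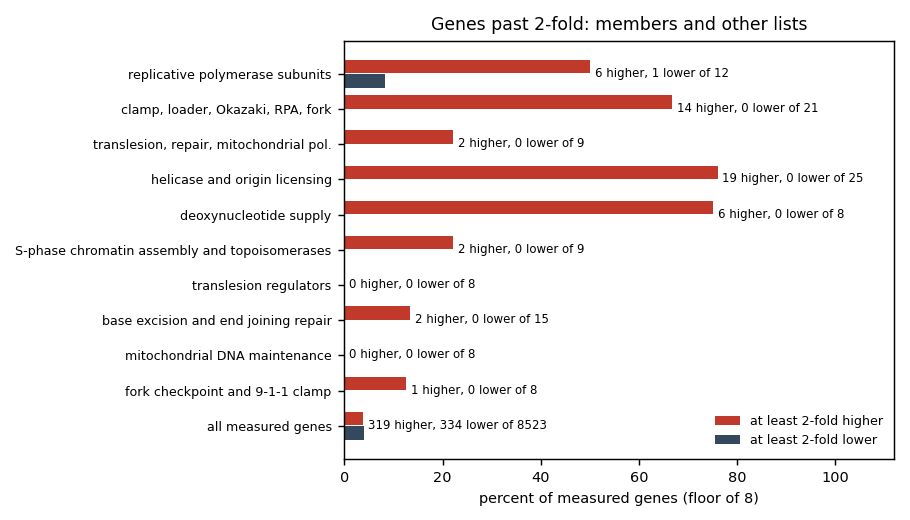
Percent of measured genes at least 2-fold higher (red) or lower (dark blue) with analogue 3, with the floor of 8, for the 3 classes of members, the 7 other lists and all measured genes (3.74% and 3.92%). The count behind each bar is printed beside it. Helicase and licensing genes, deoxynucleotide genes and the fork and replicative classes have the longest bars.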

How the data were processed

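Biotin-labelled cRNA of 2 CL1-5 cultures was hybridised to Affymetrix arrays, per the labels' protocols. The authors deposited 1 linear intensity per probe set and array for 54675 probe sets. GCRMA, a background correction and normalization, is named in the submitters' processing notes, and its version is not given in the sources used here. A median of 1 in each column was read from the values, and no label states that scaling. Gene names came from the platform annotation held by GEO: 41097 had 1 symbol, 1801 several and 11777 none, and 41043 of the first matched RefSeq by gene number.

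Each gene was represented by its single-symbol probe set with the highest mean log2 level. Log2 intensities were floored at 5 (intensity 32), and DMSO was subtracted from analogue 3. Differences of at least 2-fold were counted. Alternatives were floors of log2 1, 3, 4 and 7 or none, 3 scalings, 2 probe set rules and thresholds of 1.5-fold and 3-fold. The members and lists were chosen with earlier results of these data known. All members are named. Of each other list, up to 4 of the genes with the highest mean level could be named, and those named after their values were seen are stated. No detection calls were used. The steps were checked on simulated data. Python 3.11.15, pandas 2.3.3 and statsmodels 0.14.6 (loess span 0.3) were used. The number of arrays limits the precision.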

Additional observations from a re-analysis of the deposited data

How the results depend on the processing

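The count of members at least 2-fold higher was 11 of 27 as reported. It was 27 of 46 with no floor and 27 of 45 with a floor of log2 1. With log2 3 it was 22 of 42, and with log2 7 it was 5 of 7. The shares of all measured genes were 2.40%, 3.76%, 3.74% and 2.22% in that order. At thresholds of 1.5-fold and 3-fold, 17 and 3 of 27 members passed, where 9.47% and 0.57% of all measured genes did. The count at least 2-fold lower, 0 as reported, was 2 with no floor and with log2 1 (POLD4 and POLI), and 1 with log2 3, with log2 4 and at 1.5-fold (POLD4). The shares of all measured genes were 3.66%, 5.25%, 3.92%, 3.15% and 9.13% in that order. The replicative median of 0.65 became 1.13 with no floor and with log2 1, 1.03 with log2 3 and 0.85 with log2 4. The specialised polymerase median of 0.01 became 0.31 with log2 3, 0.23 with log2 4 and 0.40 with a gene's median probe set, which left 1 gene. The median of all members, 0.74 as reported, was 1.16 with no floor, with log2 1 and with log2 7, 1.09 with log2 3, and 1.10 with the median of probe sets. No polymerase gene was measured with log2 7, so those medians have no value there. By construction, a lower floor takes in more genes and raises fewer low values, so bounds grow. The median of the other fork genes ran from 1.12 to 1.27 over the alternatives. Centring, loess removal and quantile normalization each left 11 members higher and 0 lower. Of 234 values for single members under 10 alternatives, 201 differed from the reported value by less than the probe-set SD and 33 by more. None of the members past 2-fold turned sign, but a change of floor cannot turn a sign. Members above the floors on both arrays also keep their value when only the floor changes. RFC5, which was not past 2-fold, went from -0.16 to 0.87 with the median of its probe sets. No paired analysis was possible because each group has 1 array.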
